A study of Arabidopsis thaliana with 36 samples.

Results

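The purple acid phosphatases PAP17, PAP12, PAP10, PAP26, PAP1, PAP25, PAP22, PAP23, PAP24 and PAP14 were followed through all 36 RNA-seq libraries of Arabidopsis seedlings that overexpress the vacuolar Pi transporter PHT5;1 and of their wild type (WT). These 10 genes were taken by name out of the 29 annotated members of the family and the 28496 named genes of the expression table. Shoots and roots of Col-0 WT and of 2 transgenic lines (4 and 12), in which PHT5;1-GFP stands behind the cauliflower mosaic virus 35S promoter, were sequenced separately, with 2 libraries for each of the 18 combinations of tissue, genotype and Pi supply. Seedlings had 250 µM KH2PO4 for 10 days (sufficient Pi), and the starved ones were then moved to 10 µM KH2PO4 for 1 or 3 more days. A change with starvation therefore also holds the move and the added age, whereas lines and WT were compared at the same age. Lines 4 and 12 are separate transgenic lines of the same construct. About 20 seedlings were pooled per replicate, and the replicates are called biological without a statement that they came from separate cultures, so p-values measure the spread between these libraries. All values are RPKM, reads scaled to the exon length of the gene and the mapped reads of the library, which can be compared between genes.

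Purple acid phosphatases are metal-containing enzymes that release Pi from organic phosphate esters, and plants use them in the vacuole, in the cell wall and outside the root. Pi starvation raises the transcripts of many of them, largely through the transcription factor PHR1 and its relatives, which bind a short palindrome in promoters called P1BS. PAP26 is the principal intracellular acid phosphatase of Arabidopsis, found in the vacuole and also secreted. PAP12 and PAP10 are secreted enzymes, PAP10 being held at the root surface, and PAP17 is a small enzyme long used as a starvation marker.

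The labels were checked first on PHT5;1 (AT1G63010). In roots it stood at 28.2 to 41.7 RPKM over the 6 WT libraries, at 52.1 to 92.4 in line 4 and at 306 to 399 in line 12. In shoots the ranges were 14.7 to 19.9 for WT, 18.9 to 35.5 for line 4 and 52.6 to 93.8 for line 12. Line 4 was thus well apart from WT in the root, but its starved shoots at 18.9 to 22 RPKM touched the WT range. Its second shoot library at sufficient Pi lay within that range too. The PHT5;1 ratio of line 4 to WT in the shoot was 1.82 at sufficient Pi (limma adjusted p = 0.024). It was 1.08 after 1 day (adjusted p = 0.72) and 1.155 after 3 days (adjusted p = 0.44). All 3 ratios stayed under the 2-fold limit used for shoots below. The 4 green-tissue markers RBCS1A, LHCB1.3, RCA and GAPA summed to 27296 to 39440 RPKM in shoots and to 217 to 636 in roots, and the 4 root markers PYK10, CASP1, CASP2 and PRP3 to 3762 to 5533 in roots and to 120 to 288 in shoots. Library totals recovered from the steps between values ran from 23.5 to 37.2 M reads in shoots and from 19 to 40.7 M in roots. Of the shoot libraries, 5 of replicate 2 (WT and line 12 at sufficient Pi, line 4 and line 12 after 1 day, WT after 3 days) stand apart through 313 genes seen in no other library. None of the members is among those genes (0 of 10), and the members' results that depend on these libraries are given with and without them. For the other family genes and hydrolases only values with all libraries are given. The median log2 change over all genes lay between -0.14 and 0.19 in the shoot comparisons and between -0.09 and 0.13 in the root comparisons.

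P1BS was looked for as GNATATNC, a palindrome that reads alike on both strands, in the 300 bases before each gene start of the RefSeq annotation of TAIR10.1. It occurred before PAP14, PAP24, PAP25, PAP23 and PAP1 and not before PAP17, PAP12, PAP10, PAP22 and PAP26, so 5 of 10 windows held it, against 6.48% of 26710 protein-coding genes. The other family genes held it in 6 of 19 windows (PAP5, PAP6, PAP8, PAP11, PAP19 and PAP20), so a match is not particular to these 10. In windows of 1000 bases 6 of 10 members held it, PAP26 being added, as did 11 of the other 19 and 20.3% of all genes. PAP14 held 2 matches, whose first bases lie 141 and 104 bases before the gene start. The match lies 153 bases before the start of PAP24, 157 before that of PAP25, 96 before that of PAP23 and 13 before that of PAP1. The 5 windows that hold a match are shown, and beside them that of PAP17, which has the largest change with starvation and no match. A match is a run of letters and says nothing on binding. The RefSeq gene start need not be that of the annotation behind the RPKM values. For PAP17 the gene length given with those values is 1627 bases, shorter than the 1658 bases of its RefSeq exons. Windows before other annotated starts were not read, so the absence of a match holds for the RefSeq starts only. The sequences are RefSeq, 5′ to 3′ on the strand of the gene and ending at its last base before the start, with the matches in capitals.
PAP14, chr2:19266457-19266756, minus strand: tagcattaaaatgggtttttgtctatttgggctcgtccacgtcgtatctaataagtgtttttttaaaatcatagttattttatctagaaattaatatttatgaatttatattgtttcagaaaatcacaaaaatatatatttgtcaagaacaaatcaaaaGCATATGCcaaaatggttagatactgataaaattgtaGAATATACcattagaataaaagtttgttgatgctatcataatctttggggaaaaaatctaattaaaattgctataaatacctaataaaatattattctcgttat
PAP24, chr4:12814457-12814756, minus strand: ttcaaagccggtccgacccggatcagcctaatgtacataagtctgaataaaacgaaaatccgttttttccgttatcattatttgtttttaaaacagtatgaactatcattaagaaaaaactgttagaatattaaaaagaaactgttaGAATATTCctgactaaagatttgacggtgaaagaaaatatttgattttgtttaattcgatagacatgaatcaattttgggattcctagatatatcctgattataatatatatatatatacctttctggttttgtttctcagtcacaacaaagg
PAP25, chr4:17175858-17176157, minus strand: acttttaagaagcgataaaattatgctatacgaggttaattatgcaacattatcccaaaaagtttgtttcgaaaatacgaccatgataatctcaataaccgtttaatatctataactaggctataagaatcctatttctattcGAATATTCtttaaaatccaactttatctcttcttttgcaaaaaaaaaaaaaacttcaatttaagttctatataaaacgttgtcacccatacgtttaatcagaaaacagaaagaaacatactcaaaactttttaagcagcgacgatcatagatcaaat
PAP23, chr4:7958920-7959219, minus strand: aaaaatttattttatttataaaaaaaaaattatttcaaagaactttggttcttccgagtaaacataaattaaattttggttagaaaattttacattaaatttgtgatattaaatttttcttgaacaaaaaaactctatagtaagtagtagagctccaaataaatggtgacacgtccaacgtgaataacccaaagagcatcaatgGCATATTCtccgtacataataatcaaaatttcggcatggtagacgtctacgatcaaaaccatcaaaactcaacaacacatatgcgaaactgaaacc
PAP1, chr1:4718270-4718569, minus strand: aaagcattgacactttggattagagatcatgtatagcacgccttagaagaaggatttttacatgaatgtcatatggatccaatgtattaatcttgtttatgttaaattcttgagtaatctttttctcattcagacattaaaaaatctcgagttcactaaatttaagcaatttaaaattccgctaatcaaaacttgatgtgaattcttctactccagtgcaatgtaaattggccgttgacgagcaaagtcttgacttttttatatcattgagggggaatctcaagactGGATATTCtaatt
PAP17, chr3:6089081-6089380, plus strand: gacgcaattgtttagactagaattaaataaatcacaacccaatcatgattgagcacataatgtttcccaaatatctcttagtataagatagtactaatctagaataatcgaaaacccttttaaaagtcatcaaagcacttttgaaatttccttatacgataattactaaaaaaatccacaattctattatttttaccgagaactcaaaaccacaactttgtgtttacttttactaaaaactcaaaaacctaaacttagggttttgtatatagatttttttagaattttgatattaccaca

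PAP26 (AT5G34850, chr5:13107626-13111656, minus strand, RefSeq TAIR10.1) was the most abundant of the genes followed here in WT at sufficient Pi and nearly without transcript in both lines. In WT shoots its libraries read 72.1 and 68.6 RPKM at sufficient Pi, 63.5 and 70.2 after 1 day and 61.0 and 65.3 after 3 days. In WT roots they read 154 and 145, 167 and 150, and 163 and 163 RPKM in the same order. Starvation did not move it past the test in WT, with a 3-day log2 change of -0.16 (SE 0.16, limma adjusted p = 0.5) in the shoot and 0.12 (SE 0.18, adjusted p = 0.63) in the root.

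In line 4 shoots PAP26 lay between 0 and 0.061 RPKM, with 2 of 6 libraries at 0, and in line 12 shoots between 0.0265 and 0.0608. Line 4 roots held 0.0373 to 0.152 RPKM and line 12 roots 0.0312 to 0.387. No library of either line came near the lowest WT library of its tissue. Behind these values stood 10 reads over the 6 shoot libraries of line 4 and 16 over those of line 12, against 22127 in WT, and 32 and 62 reads in the roots against 55624. Scaled to the library totals, PAP26 was 2287 times lower in line 4 shoots (95% exact binomial interval 1243 to 4770, counting error only) and 1563 times lower in line 12 shoots (962 to 2736). In roots it was 1808 times lower in line 4 (1281 to 2644) and 931 times lower in line 12 (726 to 1214). In each of the 6 comparisons of a line with WT in each tissue, PAP26 was called lower. PAP26 passed the filter on low values through its WT libraries, and its absence in the lines was known when the genes were chosen. These calls thus say little beyond the values, and the counts of members called in a line against WT include them.

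**Figure D1:**
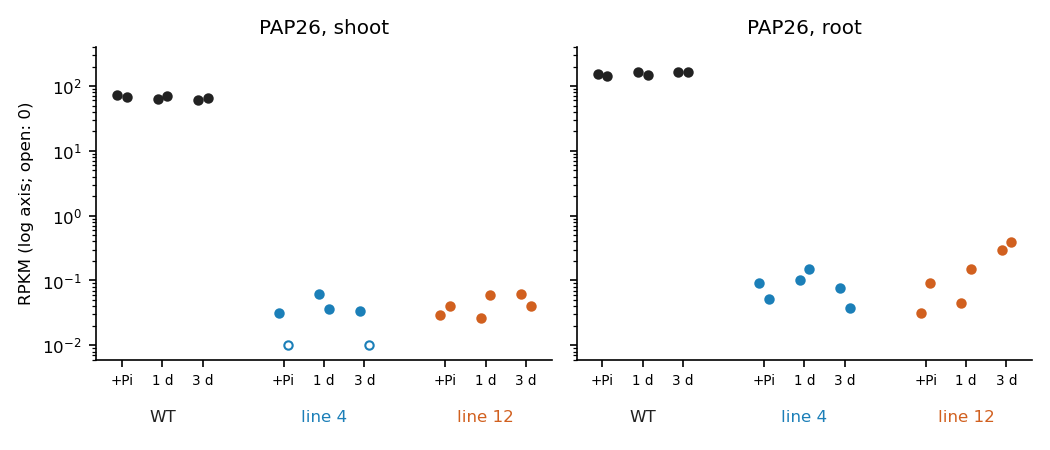
PAP26 in every library, RPKM on a log axis, shoot at left and root at right, by genotype and Pi supply (sufficient Pi, 1 day, 3 days); open points are libraries at 0, drawn at the bottom. WT libraries sit between 61.0 and 167 RPKM and those of the lines at 0.387 or lower.

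The line 12 roots after 3 days had 0.29 and 0.387 RPKM of PAP26, above the 0.0312 to 0.149 of the other line 12 roots. The 3-day response of PAP26 in line 12 roots minus that of WT was 0.80 on the log2 scale (SE 0.25, adjusted p = 0.0498 from limma). It rests on 24 and 21 reads, and leaving out any of 13 of the 18 root libraries took the adjusted p to between 0.051 and 0.19, the libraries being those of WT at every supply, of line 4 after 1 and 3 days, both 3-day libraries of line 12 and its first one at sufficient Pi. It was also lost with a pseudocount of 1 RPKM (log2 0.21, adjusted p = 0.42) and without a filter on low values (adjusted p = 0.071).

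The 3 annotated genes on either side of PAP26 had next to no transcript in any genotype. Of these 6 genes, 5 stayed at or below 0.115 RPKM in all libraries, and AT5G34871 reached 2.86 RPKM in WT, 2.9 in line 4 and 3.49 in line 12 shoots but was at 0 in all 18 root libraries. The exons of PAP26 share no exact run longer than 18 bases with another family gene (PAP5 and PAP11), and the longest run any of the 10 members shares is 41 bases, between PAP25 and PAP6. How reads matching several places were treated is not given in the sources used here.

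In WT most other members rose with starvation, and after 3 days PAP26 was no longer the leading one. PAP26 held 62.1 and 64.0% of the summed RPKM of the 10 members in WT shoots at sufficient Pi, 44.6 and 46.7% after 1 day and 27.1 and 26.4% after 3 days. In WT roots its share went from 68.1 and 68.2% through 58.9 and 59.4% to 26.9 and 27.2%. The sum without PAP26 went from 43.9 and 38.7 RPKM to 164 and 182 in WT shoots, and from 72.1 and 67.5 to 442 and 434 in WT roots. In the lines PAP26 held at most 0.127% of the sum on average in any group. Over the whole family of 29 genes the mean share of PAP26 in WT was 26.9% at sufficient Pi and 18.9% after 3 days in the shoot, and 33.3% and 18.7% in the root.

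**Figure D2:**
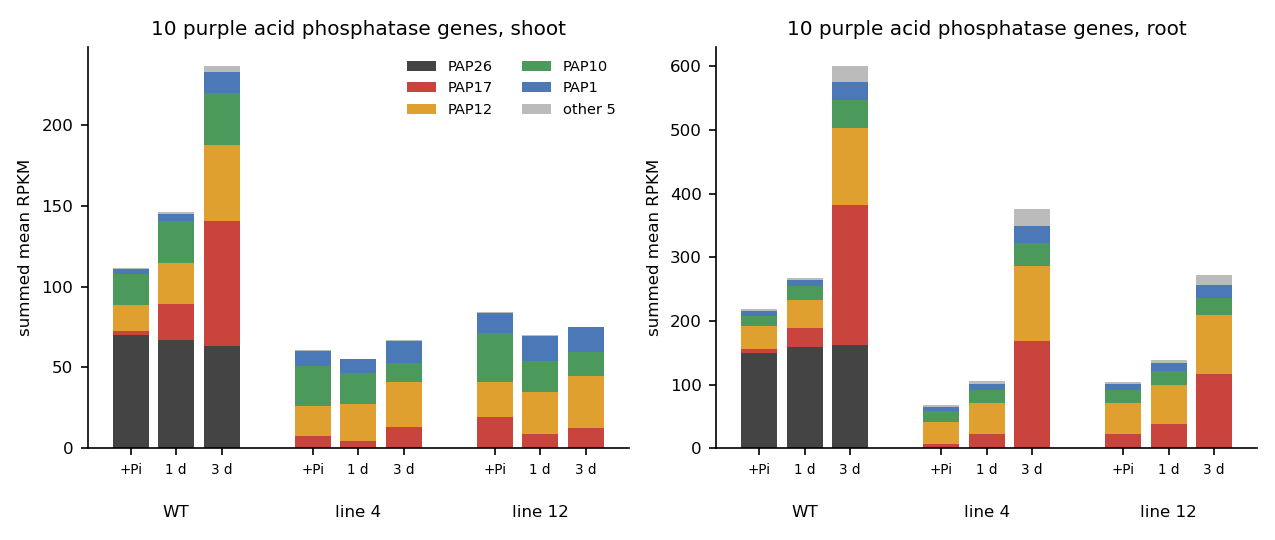
Mean RPKM (n = 2 libraries) of the 10 genes stacked for each genotype and Pi supply, shoot at left and root at right, on axes of different height; light grey is the sum of PAP25, PAP22, PAP23, PAP24 and PAP14. WT roots after 3 days reach 601 RPKM, line 4 roots 376 and line 12 roots 273, and the part of PAP26 is missing from both lines.

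After 3 days of starvation, 4 of the 10 members were called higher in WT shoots (PAP17, PAP1, PAP12 and PAP14) and none lower (0 of 10), where 6.81% of the 19773 genes tested were called in either direction. A call in the shoot needed an adjusted p under 0.05 and a 2-fold change of mean RPKM. After 1 day PAP17 alone of the 10 was called, with 6.07% of genes called. PAP25, PAP22, PAP23 and PAP24 stayed under the mean of 0.25 RPKM a gene needed for the shoot test and were not tested there. In WT roots 8 of 10 were called higher after 3 days (12.4% of 20530 genes), and PAP17 was called after 1 day (5% of genes). The 8 include PAP23 and PAP14, which entered the test through their 3-day libraries. In the root a 1.5-fold change was enough. PAP26 was tested and not called, and PAP25 was not tested.

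PAP17 (AT3G17790, chr3:6089381-6091231) changed most. In WT shoots it went from 2.71 and 1.54 RPKM at sufficient Pi to 21.3 and 23.0 after 1 day and 78.0 and 76.7 after 3 days, so no 2 supplies overlapped. The log2 change was 3.28 (SE 0.21, adjusted p = 2e-06) after 1 day and 5.08 (SE 0.21, adjusted p = 2.3e-08 from limma) after 3 days. In WT roots it went from 6.47 and 6.39 to 34.4 and 25.1 and then to 223 and 215 RPKM, a 3-day log2 change of 5.04 (SE 0.16, adjusted p = 2.1e-12). The shoot response minus the root response was 0.04 (SE 0.28, adjusted p = 0.95). It was -0.31 (adjusted p = 0.57) without the 5 shoot libraries that stand apart and -0.33 (adjusted p = 0.5) without the second WT shoot library at sufficient Pi.

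PAP12 (AT2G27190) and PAP10 (AT2G16430), the secreted enzymes, started from higher levels and changed less. PAP12 read 16.9 and 15.6 RPKM in WT shoots at sufficient Pi and 44.4 and 50.0 after 3 days (log2 1.52, SE 0.11, adjusted p = 1.6e-06), and in WT roots 37.6 and 35.6 against 119 and 125 (log2 1.73, SE 0.11, adjusted p = 9.1e-09). PAP10 read 19.8 and 18.1 against 28.4 and 36.1 RPKM in the WT shoot, a log2 change of 0.75 (SE 0.12, adjusted p = 0.00071) whose ratio of 1.7 stayed under the 2-fold limit. In WT roots PAP10 passed the test, with 17.4 and 14.9 against 45.4 and 43.6 RPKM (log2 1.45, SE 0.12, adjusted p = 4.6e-07). Its response was smaller in the shoot than in the root by 0.70 on the log2 scale (SE 0.18, adjusted p = 0.012), where 14.5% of 21141 genes differed in this way and PAP22 was the only other member to do so (2 of 10). Without the second WT root library at sufficient Pi that difference was -0.59 (adjusted p = 0.071), and without the first WT shoot library after 3 days it was -0.53 (adjusted p = 0.077).

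PAP1 (AT1G13750) rose in both tissues. It read 3.33 and 3.07 RPKM in WT shoots at sufficient Pi and 10.3 and 15.4 after 3 days (log2 1.90, SE 0.25, adjusted p = 0.00016), and 6.87 and 7.23 against 27.5 and 26.7 in WT roots (log2 1.91, SE 0.11, adjusted p = 3.6e-09). Neither set of starved libraries overlapped with the sufficient ones.

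PAP22 (AT3G52820) was a root gene in these seedlings. In WT shoots it read 0.307 and 0.160 RPKM at sufficient Pi, 0.133 and 0.0494 after 1 day and 0.125 and 0.155 after 3 days, so that both sufficient libraries lay above the 4 starved ones, at levels too low for the shoot test. In WT roots it went from 3.43 and 2.66 RPKM to 20.2 and 17.3 after 3 days (log2 2.53, SE 0.17, adjusted p = 2.3e-08). Its shoot response minus the root response was -2.83 (SE 0.35, adjusted p = 9.1e-06). PAP24 (AT4G24890) went from 0.286 and 0.736 to 3.65 and 4.60 RPKM in WT roots (log2 2.58, SE 0.31, adjusted p = 1.6e-05), and from 0 and 0.119 to 0.596 and 0.670 in WT shoots, where it was not tested. In the fit over both tissues its shoot response minus the root response was -1.04 (SE 0.39, adjusted p = 0.08), and it passed without the first WT shoot library (-1.32, adjusted p = 0.048) or the second WT root library (-1.48, adjusted p = 0.022) at sufficient Pi.

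PAP23 (AT4G13700), PAP14 (AT2G46880) and PAP25 (AT4G36350) were at or near 0 before starvation. PAP23, which has phytase activity, was at 0 in all 4 WT root libraries at sufficient Pi and after 1 day and read 1.28 and 1.56 RPKM after 3 days. PAP14 was likewise at 0 in those 4 libraries and read 0.813 and 0.945 after 3 days. Both passed the filter on low values through the 3-day groups, so that their calls (adjusted p = 1.7e-05 and 7.2e-05) say little beyond the values. PAP25, an enzyme of the cell wall, went from 0 in both WT shoot libraries to 0.243 and 0.384 RPKM after 3 days, and from 0 to 0.199 and 0.212 in WT roots, and was not tested in either tissue. In WT shoots PAP14 read 0.912 and 0 RPKM at sufficient Pi, 0.836 and 0.784 after 1 day and 1.98 and 3.05 after 3 days (log2 2.33, SE 0.67, adjusted p = 0.019). That call was lost without the second WT library after 3 days (log2 2.05, adjusted p = 0.11), without the second WT library at sufficient Pi (log2 1.22, adjusted p = 0.21) and without the 5 libraries that stand apart (log2 0.94, adjusted p = 0.49).

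**Figure D3:**
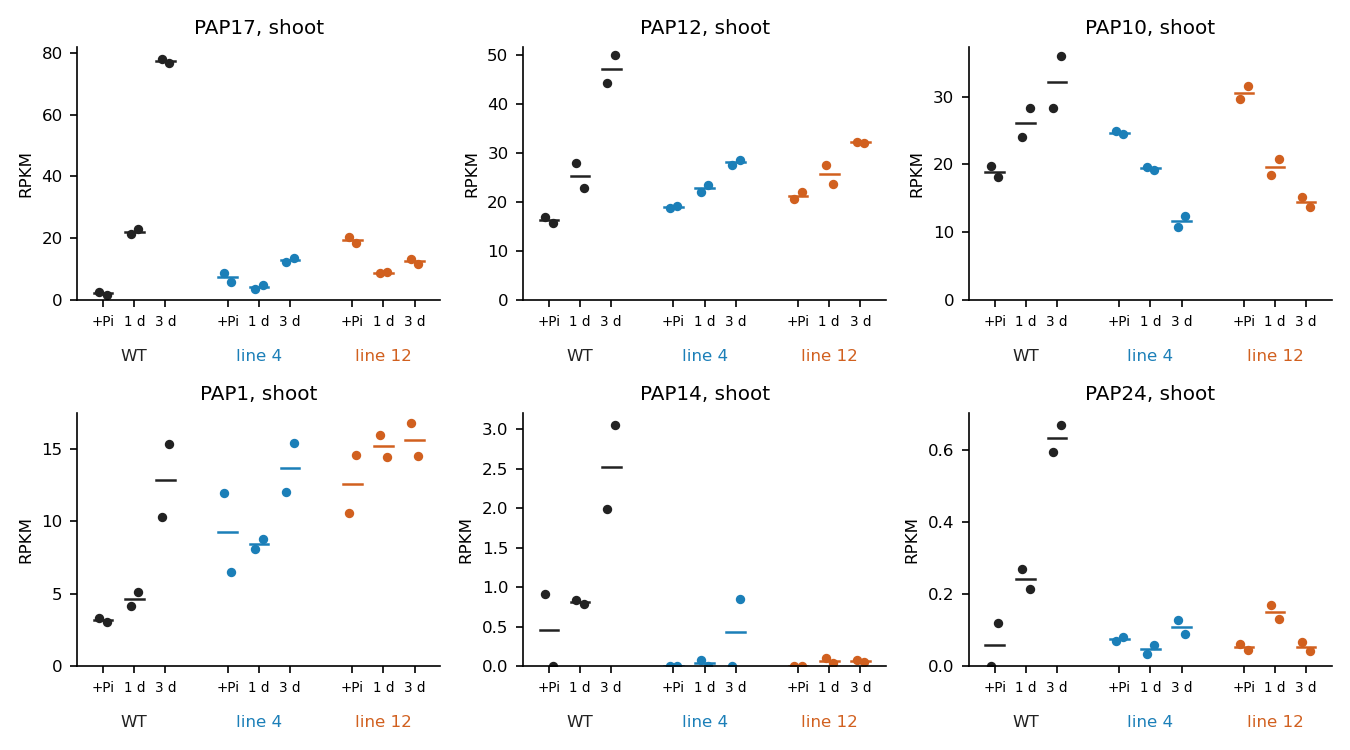
PAP17, PAP12, PAP10, PAP1, PAP14 and PAP24 in shoots, RPKM in each library (points) and group mean (short lines, n = 2) at sufficient Pi and after 1 and 3 days in WT, line 4 and line 12. PAP17 climbs to 78.0 RPKM in WT and stays at or below 20.4 in the lines, and PAP10 ends at 28.4 and 36.1 in WT and at or below 15.3 in the lines.

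At sufficient Pi the shoots of the lines had more PAP17 and PAP1 than WT. Both lines differ from WT in PHT5;1 and in PAP26, and the part of each in differences between lines and WT was not tested. In line 12, 3 of 10 members were called, PAP17 and PAP1 higher and PAP26 lower, where 9.04% of genes were called, and line 4 gave the same 3 calls with 3.21% of genes called. PAP17 read 20.4 and 18.4 RPKM in line 12 and 8.70 and 5.92 in line 4 against 2.71 and 1.54 in WT, and the 3 genotypes did not overlap. The log2 differences from WT were 3.09 (SE 0.21, adjusted p = 2.1e-06) and 1.69 (SE 0.21, adjusted p = 0.0005). PAP17 was also higher in line 12 than in line 4 (log2 1.40, SE 0.21, adjusted p = 0.0065), the only member of 10 called between the lines in the shoot (0.577% of genes), a call lost without the first line 12 library (log2 1.33, adjusted p = 0.058) or the second line 4 library (log2 1.14, adjusted p = 0.11).

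PAP1 read 10.6 and 14.6 RPKM in line 12 shoots and 11.9 and 6.53 in line 4 shoots, against 3.33 and 3.07 in WT. The log2 differences were 1.88 (SE 0.25, adjusted p = 0.00014) in line 12 and 1.40 (SE 0.25, adjusted p = 0.0048) in line 4. The line 4 call was lost without its first library (log2 0.98, adjusted p = 0.066), without the second WT library (log2 1.34, adjusted p = 0.051) and without the 5 libraries that stand apart (log2 1.34, adjusted p = 0.063). That first line 4 library, with the higher PAP1 and PAP17, was also the line 4 shoot library with the most PHT5;1, 35.5 RPKM against 19 in the second, and the part of this in the result was not tested. PAP10 read 29.7 and 31.5 RPKM in line 12 against 19.8 and 18.1 in WT (log2 0.69, SE 0.12, adjusted p = 0.0012), a ratio of 1.62 that stayed under the limit.

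In starved shoots the order turned, and PAP17 was lower in the lines than in WT. After 1 day it read 8.83 and 8.90 RPKM in line 12 and 3.65 and 4.81 in line 4 against 21.3 and 23.0 in WT, with log2 differences of -1.30 (SE 0.21, adjusted p = 0.00037) and -2.33 (SE 0.21, adjusted p = 1.1e-05). After 3 days it read 13.4 and 11.7 in line 12 and 12.2 and 13.6 in line 4 against 78.0 and 76.7, with log2 differences of -2.60 (SE 0.21, adjusted p = 3.5e-06) and -2.56 (SE 0.21, adjusted p = 2.8e-06). At 1 day 3 of 10 members were called in line 12 (PAP1 higher, PAP17 and PAP26 lower; 11.3% of genes) and 2 of 10 in line 4 (PAP17 and PAP26 lower; 5.84%). At 3 days 4 of 10 were called lower in each line, PAP17, PAP10, PAP14 and PAP26, and none higher (0 of 10), with 7.69% of genes called in line 12 and 8.22% in line 4. PAP14 passed the filter on low values in the shoot through its WT libraries, so its calls say little beyond the values.

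PAP10 fell in the shoots of both lines with starvation and did not in WT. From 19.8 and 18.1 RPKM it reached 28.4 and 36.1 in WT shoots after 3 days, while in line 12 it fell from 29.7 and 31.5 to 15.3 and 13.7 and in line 4 from 24.9 and 24.5 to 10.8 and 12.4. PAP10 was the only member called within a line's shoot over 3 days (1 of 10 in each; 8.27% of genes in line 12 and 6.96% in line 4), with log2 changes of -1.07 (SE 0.12, adjusted p = 3.4e-05) and -1.08 (SE 0.12, adjusted p = 3.7e-05). The line 4 ratio fell under 2-fold without its first 3-day library (log2 -0.98). Against WT after 3 days PAP10 was lower by 1.13 on the log2 scale in line 12 (-1.13, SE 0.12, adjusted p = 2.9e-05) and by 1.45 in line 4 (-1.45, SE 0.12, adjusted p = 3.5e-06). The line 12 ratio fell under 2-fold without the second WT library after 3 days, as it did without the 5 libraries that stand apart (log2 -0.96 in both cases).

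PAP17, PAP12 and PAP1 showed weaker 3-day changes within the lines' shoots than in WT, and none of the 3 was called there. PAP17 changed by -0.62 in line 12 (SE 0.21, adjusted p = 0.037) and by 0.82 in line 4 (SE 0.21, adjusted p = 0.0092), both under 2-fold, though the line 4 value reached 1.09 and was called without its first library at sufficient Pi. PAP12 changed by 0.59 in line 12 (SE 0.11, adjusted p = 0.00099) and by 0.55 in line 4 (SE 0.11, adjusted p = 0.0015), from 20.6 and 22 to 32.3 and 32.1 RPKM and from 18.9 and 19.2 to 27.6 and 28.6. PAP1 started high and ended where WT ended, at 16.8 and 14.5 RPKM in line 12 and 12.0 and 15.4 in line 4 against 10.3 and 15.4 in WT, with overlapping libraries and differences of 0.30 (SE 0.25, adjusted p = 0.36) and 0.11 (SE 0.25, adjusted p = 0.76). PAP14 stayed at or below 0.0978 RPKM in line 12 shoots and read 0 and 0.853 in line 4 after 3 days, against 1.98 and 3.05 in WT. The PAP14 call in line 4 was lost without that line's first 3-day library (log2 -1.30, adjusted p = 0.17), without the second WT library (log2 -2.09, adjusted p = 0.084) and without the 5 libraries that stand apart (log2 -2.09, adjusted p = 0.058). PAP24 and PAP25 were too low for the shoot test. After 3 days PAP24 read 0.127 and 0.0903 RPKM in line 4 and 0.0654 and 0.0427 in line 12, against 0.596 and 0.670 in WT. PAP25 then read 0.0244 and 0 in line 4 and 0.0661 and 0 in line 12, against 0.243 and 0.384 in WT. The second WT library there is among the 5 that stand apart. These differences were not tested, and how many genes separate the groups in this way was not counted.

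The difference between the 3-day response of a line and that of WT was tested for each member. In the shoot 4 of 10 responded less in line 12 (PAP17, PAP10, PAP1 and PAP12), where 33.2% of genes differed, and the same 4 in line 4, where 29.8% differed. These shares show that differing responses were common among all genes. The differences for PAP17 were -5.70 (SE 0.30, adjusted p = 1e-07) in line 12 and -4.25 (SE 0.30, adjusted p = 1.1e-06) in line 4, and for PAP10 -1.82 and -1.83 (SE 0.18, adjusted p = 5.7e-06 and 1e-05). For PAP12 they were -0.93 and -0.97 (SE 0.15, adjusted p = 0.00041 and 0.0004), and for PAP1 -1.58 and -1.29 (SE 0.36, adjusted p = 0.0041 and 0.015). Without the 5 libraries that stand apart, PAP1 missed the threshold in line 12 (-1.02, adjusted p = 0.16) and in line 4 (-0.96, adjusted p = 0.16). In line 4 it also missed it without the second WT library after 3 days (-1.01, adjusted p = 0.065), the first line 4 library after 3 days (-1.11, adjusted p = 0.061) or the first at sufficient Pi (-0.87, adjusted p = 0.061). Both lines are set against the same WT libraries, so these values are not independent of each other.

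**Figure D4:**
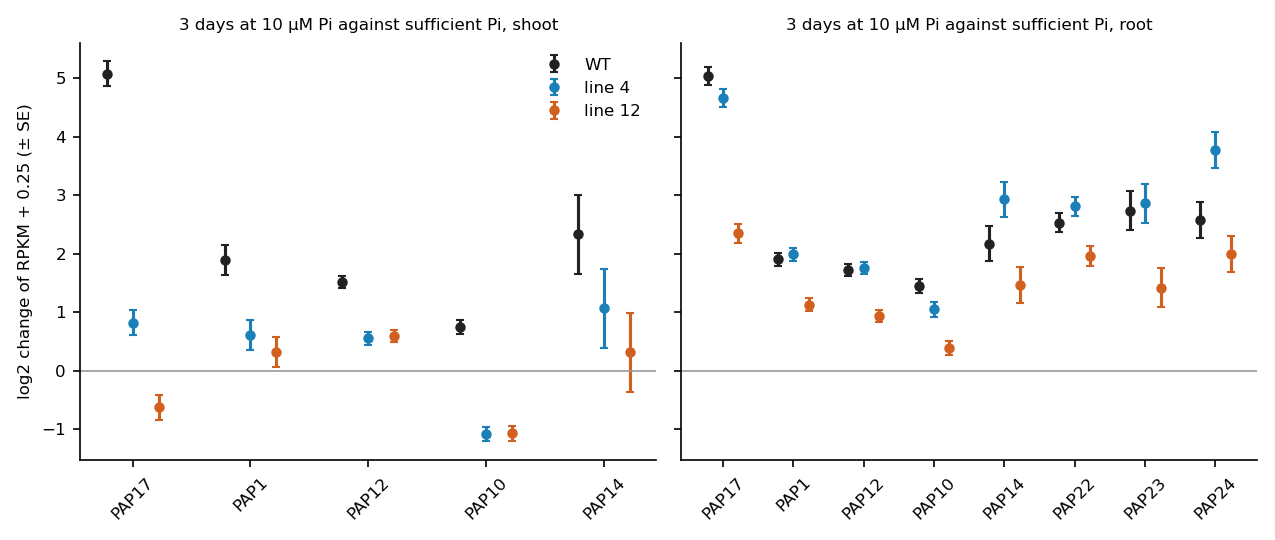
Change of log2(RPKM + 0.25) over 3 days at 10 µM Pi, with its standard error from limma, in WT, line 4 and line 12, shoot at left and root at right, for the members tested in that tissue other than PAP26. In the shoot PAP17 changes by 5.08 in WT, 0.82 in line 4 and -0.62 in line 12, and in the root line 12 lies below WT for every member shown.

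Within the roots of both lines most members rose with starvation. PAP23 and PAP14, counted here, entered the root test through the 3-day libraries, so their calls say little beyond the values. Over 3 days 8 of 10 members were called higher in line 4 roots, the same 8 as in WT, where 13.0% of genes were called, and 7 of 10 in line 12 roots, where 8.59% were, PAP10 being the member not called (log2 0.39, SE 0.12, adjusted p = 0.04, ratio 1.32). PAP17 read 6.33 and 6.45 RPKM at sufficient Pi and 185 and 152 after 3 days in line 4 (log2 4.66, SE 0.16, adjusted p = 5.4e-12), and 25.4 and 20.1 against 134 and 99.8 in line 12 (log2 2.35, SE 0.16, adjusted p = 6.4e-08). PAP23 in line 12 read 0.785 and 0.381 RPKM after 3 days, a call lost without the first of these libraries (log2 1.06, adjusted p = 0.11) or the second line 12 library at sufficient Pi (log2 1.15, adjusted p = 0.093).

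In line 12 roots 5 of 10 members differed in their 3-day response from WT (11.1% of genes), with PAP17, PAP10, PAP12 and PAP1 responding less and PAP26 as given above. The differences were -2.69 for PAP17 (SE 0.22, adjusted p = 6.6e-07), -1.06 for PAP10 (SE 0.18, adjusted p = 0.0007), -0.79 for PAP12 (SE 0.15, adjusted p = 0.0021) and -0.77 for PAP1 (SE 0.15, adjusted p = 0.0029). In line 4 roots none of the 10 differed by limma (0 of 10, with 2 at an unadjusted p under 0.05; 6.42% of genes), and the difference for PAP17 was -0.38 (SE 0.22, adjusted p = 0.39). Without the first WT root library at sufficient Pi, PAP24 was called as responding more in line 4 than in WT. The share of all genes called without that library is not given. After rescaling the libraries by their median ratio PAP10 passed in line 4 (-0.49, adjusted p = 0.036), and PAP14 passed without a filter on low values (0.76, adjusted p = 0.043) or without a variance trend (0.76, adjusted p = 0.023).

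**Figure D5:**
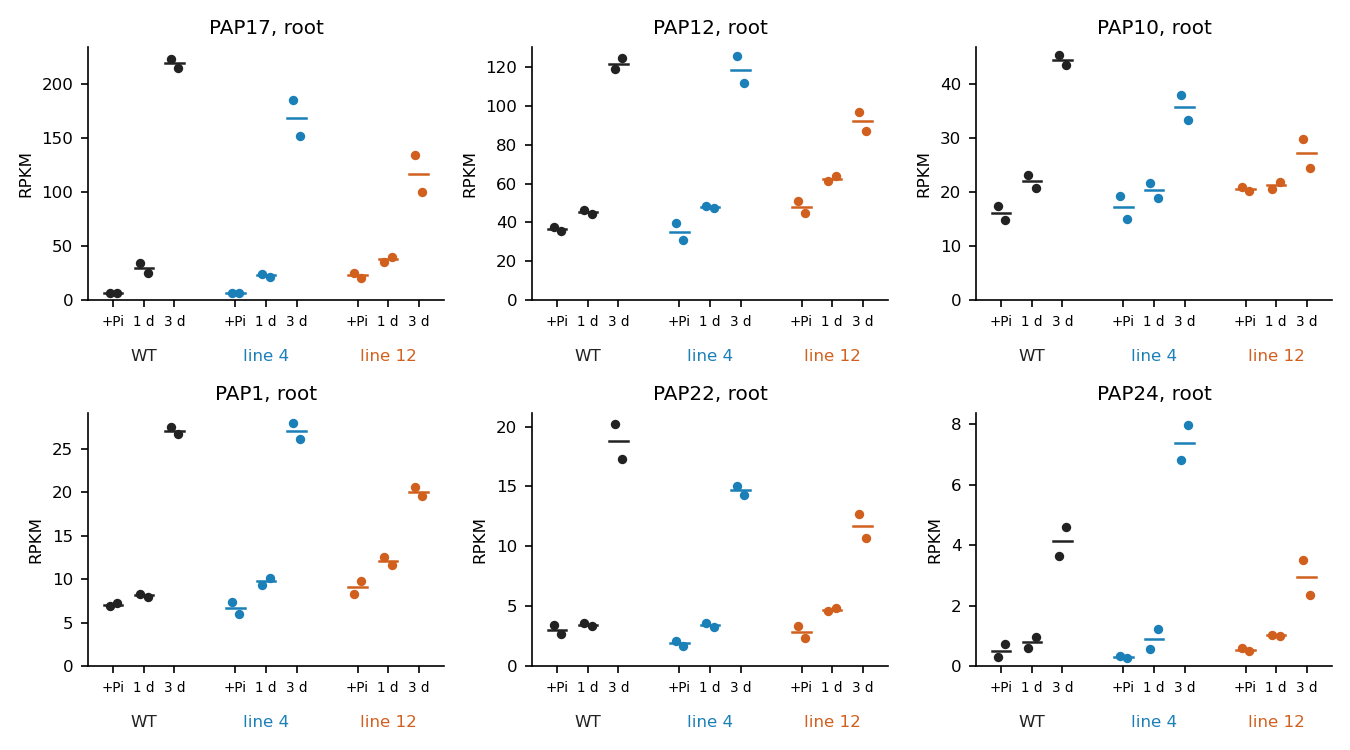
PAP17, PAP12, PAP10, PAP1, PAP22 and PAP24 in roots, RPKM in each library (points) and group mean (short lines, n = 2) at sufficient Pi and after 1 and 3 days in WT, line 4 and line 12. All 6 genes are highest after 3 days in every genotype, and line 12 lies below WT there for each of them.

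Measured against WT at the same supply, few members other than PAP26 differed in the roots. At sufficient Pi 2 of 10 were called in line 12, PAP17 higher and PAP26 lower (5.10% of genes), and 2 of 10 in line 4, PAP22 and PAP26, both lower (4.44%). PAP17 stood at 25.4 and 20.1 RPKM in line 12 against 6.47 and 6.39 in WT (log2 1.77, SE 0.16, adjusted p = 2.6e-06), and at 6.33 and 6.45 in line 4 (log2 -0.01, SE 0.16, adjusted p = 0.98). It was the only member called between the lines in the root (log2 1.78, SE 0.16, adjusted p = 1.3e-05; 1 of 10 against 0.960% of genes). Without the first line 4 library the PAP22 difference between the lines was 0.67 on the log2 scale. PAP22 at 2.10 and 1.67 RPKM in line 4 against 3.43 and 2.66 in WT (log2 -0.62, SE 0.17, adjusted p = 0.031) was lost without the first WT library (-0.45, adjusted p = 0.31), without the second line 4 library (-0.48, adjusted p = 0.21) and without a filter on low values (adjusted p = 0.06).

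After 1 day PAP26 was the only member called against WT in the root, in line 12 (1 of 10; 5.87% of genes) as in line 4 (1 of 10; 3.17%). PAP17 then read 35.1 and 40.3 RPKM in line 12 against 34.4 and 25.1 in WT (log2 0.35, SE 0.16, adjusted p = 0.17). PAP1 read 12.5 and 11.7 against 8.31 and 7.96 (log2 0.56, SE 0.11, adjusted p = 0.0029), a ratio of 1.49 just under the limit of 1.5, and was called without the first WT library (log2 0.59, adjusted p = 0.019) or the second line 12 library (log2 0.61, adjusted p = 0.02).

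After 3 days 4 of 10 members were called lower in line 12 roots (PAP17, PAP10, PAP22 and PAP26; 5.18% of genes) and 1 of 10, PAP26, in line 4 roots (3.02%). PAP17 read 134 and 99.8 RPKM in line 12 against 223 and 215 in WT (log2 -0.92, SE 0.16, adjusted p = 0.0011), and 185 and 152 in line 4 (log2 -0.39, SE 0.16, adjusted p = 0.22). PAP10 read 29.8 and 24.6 in line 12 against 45.4 and 43.6 (log2 -0.71, SE 0.12, adjusted p = 0.0013), a ratio that fell under 1.5-fold without the second line 12 library (log2 -0.57). PAP22 read 12.7 and 10.7 against 20.2 and 17.3 (log2 -0.67, SE 0.17, adjusted p = 0.017), a call lost without the first WT library (-0.56, adjusted p = 0.15) or the second line 12 library (-0.55, adjusted p = 0.19). PAP24 and PAP14 lay higher in line 4 roots than in WT, at 6.80 and 7.98 RPKM against 3.65 and 4.60 and at 1.76 and 1.56 against 0.813 and 0.945. The libraries did not overlap, and neither passed the test (adjusted p = 0.19 and 0.21), though both did with a pseudocount of 1 RPKM (adjusted p = 0.039 and 0.023), and PAP14 also without a filter on low values (0.007) or a variance trend (0.0034). PAP25, which was not tested, read 0.476 and 0.486 RPKM in line 4 against 0.199 and 0.212 in WT, and 0.21 and 0 in line 12. PAP23 read 0.785 and 0.381 RPKM in line 12 against 1.28 and 1.56 in WT without passing (log2 -1.04, SE 0.33, adjusted p = 0.055). It passed without a filter on low values (adjusted p = 0.01), without a variance trend (0.0085), with a pseudocount of 1 RPKM (0.0098), after rescaling (0.032), and without the first line 12 library after 3 days (0.049) or either line 4 library at sufficient Pi (0.042 and 0.04). PAP14 at 0.387 and 0.499 RPKM in line 12 against 0.813 and 0.945 (log2 -0.71, adjusted p = 0.16) passed without a filter (0.0067) or a variance trend (0.0032).

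The effect of line 12 at sufficient Pi was compared between the tissues, and 3 of 10 members differed (15.0% of genes). It was larger in the shoot than in the root for PAP17 by 1.32 on the log2 scale (SE 0.28, adjusted p = 0.0023) and for PAP1 by 1.54 (SE 0.29, adjusted p = 0.00069). PHT5;1 was 4.7 times its WT level in those shoots and 11.2 times in those roots. In the root PAP1 read 8.26 and 9.84 RPKM in line 12 against 6.87 and 7.23 in WT, which did not pass (log2 0.34, SE 0.11, adjusted p = 0.063). For PAP26 the difference of 0.96 (SE 0.22, adjusted p = 0.0036) compares falls to near 0 from WT levels that differ between the tissues. It was lost with a pseudocount of 0.1 RPKM (adjusted p = 0.11), after rescaling (0.38, adjusted p = 0.23) and without the 5 libraries that stand apart (0.90, adjusted p = 0.068).

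In WT at sufficient Pi, 6 of 10 members were lower in the shoot than in the root, PAP17, PAP12, PAP26, PAP1, PAP22 and PAP24, where 51.1% of 21141 genes were called. The median gene was itself lower by 0.65 on the log2 scale (-0.65), and once the libraries were rescaled by their median ratio PAP22 (12.2-fold lower before rescaling) and PAP14, higher in the shoot (log2 1.28, adjusted p = 0.047), were the members called. The other 5 kept their direction, with PAP26 at -0.40, PAP12 at -0.48, PAP1 at -0.43, PAP17 at -0.90 and PAP24 at -1.02. The call of PAP24 was also lost without the second WT root library (-0.82), and PAP14 was called higher in the shoot without the second WT shoot library (2.22, adjusted p = 0.00022).

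Among the WT levels of the genes followed here at sufficient Pi, PAP26 came first in both tissues. In the whole family it did not lead clearly in the shoot. PAP4 read 72.9 and 78.1 RPKM in those shoots, against 72.1 and 68.6 for PAP26. In the shoot PAP10 at 19.8 and 18.1 RPKM and PAP12 at 16.9 and 15.6 followed, then PAP1 at 3.33 and 3.07 and PAP17 at 2.71 and 1.54, none of which overlapped with the next. In the root PAP12 at 37.6 and 35.6 came second and PAP10 at 17.4 and 14.9 followed, ahead of PAP1 at 6.87 and 7.23 and PAP17 at 6.47 and 6.39, with PAP22 at 3.43 and 2.66 next. After 3 days PAP17 led the root in all 3 genotypes, least clearly in line 12, where PAP17 read 134 and 99.8 and PAP12 96.9 and 87.2 RPKM. In line 12 shoots after 3 days the leader among the genes followed here was PAP12 at 32.3 and 32.1. PAP1 at 16.8 and 14.5 and PAP10 at 15.3 and 13.7 followed and overlapped. PAP4 was higher there, at 59.3 and 57.3 RPKM.

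Of the other 19 genes of the family, of which 12 were tested in each tissue, 2 were called in WT shoots after 3 days (6.81% of all genes tested) and 3 in WT roots (12.4%). PAP4 fell in WT shoots from 72.9 and 78.1 to 35.1 and 34.5 RPKM (log2 -1.11, SE 0.09, adjusted p = 7.2e-06). In WT roots it fell from 64.2 and 67.4 to 41.9 and 39.2 (log2 -0.69, SE 0.08, adjusted p = 1.5e-05). Its direction was opposite to that of the members called higher there. PAP4 was already low in line 12 shoots at sufficient Pi, 26.5 and 25.4 RPKM (log2 -1.53, SE 0.09, adjusted p = 1.4e-06), and rose there with starvation to 59.3 and 57.3. PAP16 rose in WT shoots from 0.538 and 0.120 to 1.29 and 1.70 RPKM (log2 1.68, SE 0.39, adjusted p = 0.0059). The second WT shoot library at either supply is among the 5 that stand apart, and the PAP16 change without them is not given. PAP7 rose in WT roots from 25.3 and 23.1 to 70.4 and 60.2 (log2 1.42, SE 0.15, adjusted p = 3.5e-06) and PAP29 fell there from 2.55 and 2.55 to 0.703 and 1.31 (log2 -1.20, SE 0.24, adjusted p = 0.0017). At sufficient Pi PAP7 was lower in the roots of line 12 (log2 -0.65, adjusted p = 0.0093) and line 4 (log2 -0.72, adjusted p = 0.0054), and PAP8 was higher in line 4 shoots, 3.75 and 4.66 against 1.92 and 2.16 RPKM (log2 0.96, adjusted p = 0.0056). In line 12 at sufficient Pi 1 of the 19 was called in each tissue, with 9.04% of all genes called in the shoot and 5.10% in the root. In line 4 it was also 1 of the 19 in each tissue, with 3.21% and 4.44% of all genes called.

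Of 6 other hydrolases, 5 were called higher in WT roots after 3 days (PECP1, PS2, RNS1, RNS2 and BFN1), where 12.4% of genes were called in either direction. In WT shoots 2 were called higher (PS2 and PECP1), with 6.81% of genes called. PECP1 and PS2 are phosphatases acting on phosphoethanolamine and phosphocholine. In WT roots PS2 went from 3.17 and 2.69 to 221 and 223 RPKM, in line 4 roots from 3.87 and 3.32 to 214 and 201 and in line 12 roots from 11.7 and 7.41 to 94.4 and 65.9. Line 12 roots thus began above and ended below WT for PS2 as for PAP17, with a difference of the 3-day response of -3.08 for PS2 (SE 0.25, adjusted p = 6e-07). The secreted ribonuclease RNS1 went from 1.81 and 3.99 to 15.7 and 15.7 RPKM in WT roots (log2 2.43, SE 0.25, adjusted p = 3.7e-06).

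The genes most like PAP26 over the 36 libraries, by Pearson r of log2(RPKM + 0.25) among genes averaging 1 RPKM or more, were RUG1 (AT5G08710, r = 0.979), AT3G06170 (0.958), AT5G09995 (0.916), AT4G19865 (0.910) and AT5G11680 (0.895). The r is a description that the contrast of WT with the lines largely sets, and the 36 points share genotypes and libraries. RUG1 read 6.18 to 13.4 RPKM in WT and 0.70 to 1.78 in the lines, AT3G06170 23.7 to 39.8 and 9.87 to 16.3. None of the 5 fell as far as PAP26. For PAP17 the 5 most alike were the SPX-domain genes SPX1 (r = 0.974) and SPX2 (0.947), which encode Pi-sensing regulators, the phospholipase D gene PLDP2 (0.949), PFA-DSP4 (0.938) and AT5G20790 (0.935). SPX1 ran from 10.0 to 569 RPKM over the WT libraries and from 5.94 to 543 over those of the lines.

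Tissue markers moved with starvation and with genotype, and their part in the results was not tested. The summed green-tissue markers in WT roots were 260 to 365 RPKM at sufficient Pi and 603 to 631 after 3 days, and the summed root markers in WT roots were 4565 to 4780 and 4661 to 4776. That sum is nearly all PYK10. PRP3, a root hair cell wall gene, moved, with a mean of 38.0 RPKM in WT roots at sufficient Pi and 108 after 3 days, and of 12.0 in line 4 and 14.5 in line 12 at sufficient Pi. The green-tissue markers in shoots summed to 27296 to 28279 in line 12 after 1 day against 34848 to 39156 in WT, and after 3 days to 28703 to 30682 in line 12 and 28644 to 31669 in line 4 against 33807 to 39440. In WT shoots the root markers summed to 236 to 288 RPKM at sufficient Pi and 127 to 146 after 3 days, with none of the 4 at 0 in either group. In bulk tissue fewer cells of a type and less RNA per cell cannot be told apart.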

How the data were processed

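RNA from shoots and roots was sequenced as 100-base read pairs, 12 libraries per lane. Per the study's methods, the authors trimmed the reads, mapped them to TAIR10 in CLC Genomics Workbench and deposited RPKM values per gene, with no counts and no statement on reads that match several places. The deposited means, fold changes, gene lists and GO p-values were not used. The 146 rows without a gene name, at most 0.109% of the summed RPKM, were left out. Library totals of 19 to 40.7 M reads were recovered from the steps between RPKM values and used for depth and for the PAP26 read counts only.

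Groups came from the sample labels. RPKM values were tested as log2(RPKM + 0.25) with limma 3.58.1 in R 4.3.3, with a variance trend, 9 groups of 2 libraries per tissue in 1 model (18 groups for comparisons between tissues), for genes averaging 0.25 RPKM or more, and p-values were Benjamini-Hochberg adjusted over all genes tested. Fold changes on that scale understate those of low genes. A call needed, beside an adjusted p under 0.05, that the mean RPKM (set to 0.25 where lower) differed by a factor of 2 in the shoot and between tissues or 1.5 in the root. Differences between responses were called by adjusted p alone. The test was checked on simulated data. Tables and figures were made with Python 3.11.15.

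The 10 genes and the lists were chosen with earlier results of these data known. All 10 were named. Of the other 19 family genes, those called in WT after 3 days or in a line at sufficient Pi were named, of 6 other hydrolases those called in WT after 3 days, and for PAP26 and PAP17 the 5 genes with the highest r. Alternatives were pseudocounts of 0.1 and 1 RPKM, no filter, no variance trend, libraries rescaled by their median ratio, a replicate block, other call limits, the whole family of 29 genes, and leaving out single libraries or the 5 that stand apart.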

Additional observations from a re-analysis of the deposited data

Results flagged for a closer look

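The differences below are those where a member's change differed between genotypes or tissues by limma's test of the difference itself, on the log2 scale. In the shoot the 3-day response of line 12 minus that of WT was -5.70 for PAP17, -0.93 for PAP12, -1.82 for PAP10 and -1.58 for PAP1. The response of line 4 minus that of WT was -4.25 for PAP17, -0.97 for PAP12, -1.83 for PAP10 and -1.29 for PAP1. In the root the response of line 12 minus that of WT was -2.69 for PAP17, -0.79 for PAP12, -1.06 for PAP10, -0.77 for PAP1 and 0.80 for PAP26, the last on 24 reads or fewer in any line 12 library.

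Between tissues, the 3-day response of WT (shoot minus root) was -0.70 for PAP10 and -2.83 for PAP22. The effect of line 12 at sufficient Pi (shoot minus root) was 1.32 for PAP17, 1.54 for PAP1 and 0.96 for PAP26.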

How the results depend on the processing

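Over the members' values, leaving out single libraries and the other settings cost some calls and added others. Those lost are given with the results above or counted below. The direction of a called value never turned. With calls by adjusted p alone, the members called rose to 3 for WT after 1 day, 5 for line 12 at sufficient Pi, 3 for line 12 over 3 days, 4 for line 4 after 1 day and 3 for line 4 over 3 days in the shoot, and to 2 for WT after 1 day, 3 for line 12 after 1 day and 2 for line 12 against line 4 in the root. The share of all genes called then also rose, to 22.8, 26.2, 33.5, 25.8 and 33.8% in the shoot and 8.18, 12.0 and 1.67% in the root, in that order. A ratio of 2 in both tissues left 1 for line 12 after 3 days and 1 for line 4 at sufficient Pi in the root (2.06 and 1.92% of genes). Without a filter on low values the root counts were 1 for line 4 at sufficient Pi, 2 for line 4 after 3 days and 1 for its response against that of WT (3.14, 2.24 and 4.50% of genes); without a variance trend the last 2 were also 2 and 1 (2.89 and 5.15%), and with a pseudocount of 1 RPKM line 4 after 3 days gave 3 (3.21%). Rescaled libraries gave 1 for the response of line 4 against that of WT in the root (9.70%) and 2 for WT shoot against root (41.8%).

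Leaving out single libraries moved the count of members called in most comparisons, including all those between tissues. In the shoot the count held for WT after 1 day and for line 12 over 3 days. In the root it held for WT after 1 and 3 days and for line 12 at sufficient Pi. It also held there for line 4 against WT after 1 and 3 days and for line 4 over 3 days. The counts themselves are not given, since each such fit leaves 1 library in a group. Over all 29 family genes PAP26 held 26.9, 26.8 and 18.9% of the sum in WT shoots and 33.3, 32.5 and 18.7% in WT roots at sufficient Pi and after 1 and 3 days.

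Of values that were not called, 3 changed sign. PAP1 in line 4 against WT after 3 days in the shoot was -0.0501 after rescaling and ran from -0.171 to 0.389 over single omissions, negative without the first WT or the second line 4 library after 3 days. PAP17 in line 4 against WT at sufficient Pi in the root was 0.0881 after rescaling and ran from -0.0231 to 0.00454 over single omissions. The PAP17 response of WT in the shoot minus the root was -0.215 with a pseudocount of 1 RPKM, -0.312 without the 5 libraries that stand apart and from -0.325 (without the second WT shoot library at sufficient Pi) to 0.401 over single omissions.

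Same-numbered libraries were not treated as pairs, since the labels give no shared source and the correlation of their deviations was over 0.1 in 11 of 36 pairs in the shoot (median 0.024, -0.18 to 0.70) and 10 of 36 in the root (median 0.073, -0.069 to 0.24), not in all. The replicate block took the count for line 12 against line 4 in the root to 2 (1.43% of genes), PAP22 being added (log2 0.52, adjusted p = 0.044), and moved no other count of members by over 1.5 times. Values near 0, such as PAP26 in the lines, rest on 0 to 24 reads per library.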
